A study of Rattus norvegicus with 18 samples.

Results

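This account concerns the caveolins and the endothelial markers of rat liver. The genes were selected on their symbols, with earlier results of these data known: Cav1 and Cav2 as caveolins, Stab2 and Lyve1 as markers of the sinusoidal endothelium, and Kdr, Pecam1, Cdh5, Tek, Eng and Vwf as endothelial genes not restricted to sinusoids. Of these 10 genes, 9 had a probe set that the array's annotation assigned to that symbol alone, out of 14217 genes measured in all. Cdh5 had none and is not analysed here. The 9 genes had 16 probe sets between them, and each gene is represented by its brightest one, the probe set with the highest mean over the 18 arrays. The probe sets were thus chosen by overall brightness over all groups, not by a difference between them, and those means ran from 5.63 for Cav1 to 10.3 for Lyve1 on the log2 scale. Signals of different probe sets depend on the probes, so no gene's level is set against another's.

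The livers came from adult male Sprague Dawley rats kept under specific pathogen free conditions, fed for 8 weeks and fasted overnight before sacrifice. The chow group received a standard diet and its livers are labelled normal. The HFD group received a high fat diet and its livers are labelled fatty. The HFD+PE group ate the same fatty diet and was dosed daily with 150 mg per kg of a pomegranate skin extract (PE), and its livers are labelled normal. No group received the extract on chow, so its effect without the high fat diet is not measured. The study asked how this extract acts on non-alcoholic fatty liver disease. Each group had 6 arrays, all labelled biological replicates. In 3 of the 153 pairs of arrays, however, no probe set differed by more than 2 log2 units, against 18 to 109 probe sets in each of the other 150 pairs. These pairs (arrays 3 and 4 of chow, 1 and 2 of HFD, and 3 and 4 of HFD+PE) were averaged and counted as 1 animal each, which leaves 15 animals, 5 per group.

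Whole liver RNA was measured, and the 7 hepatocyte markers averaged 12.8 to 13.3 in every animal, near the upper end of a scale that ran from 2.2 to 15. Array medians were 5.4 to 5.5. The arrays fell into sets by the hybridization controls bioC, bioD and cre, which are bacterial and phage transcripts added to every sample: their mean was 12.8 to 13.2 on 5 arrays (chow 1, 2 and 3 and HFD+PE 1 and 3) and 11.8 to 12.2 on the other 13. No HFD array was in the higher set. The difference between 3′ and 5′ GAPDH probe sets, a sign of RNA quality, had a median of 2.55 in chow, 2.8 in HFD and 2.9 in HFD+PE. In whole tissue, fewer cells of a type and less RNA per cell cannot be told apart.

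Caveolins are membrane proteins that coat caveolae, the small flask-shaped pits of the plasma membrane. Caveolin-1 is needed to form caveolae in most cells, caveolin-2 associates with it, and cavins and pacsins complete the coat. Liver sinusoids are lined by a fenestrated endothelium that clears macromolecules from blood through scavenger receptors such as stabilin-2 (Stab2), and that carries the hyaluronan receptor Lyve1, which is otherwise typical of lymphatic vessels. Caveolins, Pecam1, Kdr, Tek, Eng and Vwf are found in endothelia of many organs, and caveolin-1 also occurs in adipocytes, smooth muscle and fibroblasts.

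Cav2 and Cav1 lie next to each other on chromosome 4 of the rat genome, on the same strand. In the RefSeq annotation of the GRCr8 build Cav2 spans chr4:46582681-46590058 and Cav1 spans chr4:46606538-46639616, with 16480 bases from the end of Cav2 to the start of Cav1. Of the 9 genes, 6 had a promoter sequence from RefSeq. The 250 bases before the annotated start of each caveolin are shown because these neighbouring genes, although coat partners, had group means that differed in opposite directions below. Capitals mark matches to the motifs searched, on either strand. The Cav2 window is chr4:46582431-46582680 and the first Cav1 window is chr4:46606288-46606537, both on the plus strand.
Cav2: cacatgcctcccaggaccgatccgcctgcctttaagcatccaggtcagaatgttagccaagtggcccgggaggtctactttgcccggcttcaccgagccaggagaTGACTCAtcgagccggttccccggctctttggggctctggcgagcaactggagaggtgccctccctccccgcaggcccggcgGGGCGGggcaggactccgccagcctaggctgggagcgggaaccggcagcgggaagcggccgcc
Cav1: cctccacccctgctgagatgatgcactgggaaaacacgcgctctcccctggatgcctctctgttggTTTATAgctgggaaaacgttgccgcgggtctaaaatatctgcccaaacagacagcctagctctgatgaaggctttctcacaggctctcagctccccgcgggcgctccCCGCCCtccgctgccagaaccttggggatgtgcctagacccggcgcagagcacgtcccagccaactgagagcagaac

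The Cav2 window was 68.4% G and C and held 1 GC box (GGGCGG) and 1 AP-1 motif (TGANTCA). The Cav1 window was 60% G and C and held 1 GC box and 1 TATA motif (TATAAA), both on the minus strand. A second Cav1 window, before a start further downstream, held none of the motifs. Among 33469 RefSeq promoter windows of this length, 30.5% held a GC box, 6.34% an AP-1 motif and 12.9% a TATA motif, so the GC box that both caveolin windows share is common. The ETS core CCGGAA, in 12.6% of all windows, was in neither caveolin window and occurred once in that of Kdr. The sterol element TCACNCCAC, in 0.974% of all windows, was in none of the members' windows. The motifs as written here do not overlap each other in the windows shown. These are matches of letters and not measured binding sites.

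No caveolin or endothelial marker passed an adjusted p of 0.05 in any comparison over the 15 animals (limma, Benjamini-Hochberg over 14217 genes). The same was true of every gene on the array: 0% of the 14217 genes passed for HFD against chow, 0% for the extract group against HFD, 0% for the extract group against chow and 0% for both high fat groups against chow. At an unadjusted p under 0.05, 7.65%, 2.7%, 11.1% and 11.7% of all genes were found in these comparisons, in that order. Among the 9 members the corresponding counts were 2 (Cav2 and Pecam1), 1 (Stab2), 2 (Cav2 and Lyve1) and 4 (Cav1, Cav2, Lyve1 and Pecam1). In the F test of any difference between the 3 groups 2 members (Cav2 and Lyve1) and 8.14% of all genes had an unadjusted p under 0.05, and 0% of genes passed after adjustment. No member had groups that did not overlap between animals in any of them, against 0.521%, 0.134%, 1.41% and 0.106% of all genes. The comparisons share control animals, so their counts are not independent of each other.

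Caveolin-1 was the most uneven of the members within chow. The chow animals had Cav1 signals of 5.2, 5.3, 6.05, 6.4 and 6.3. The HFD animals had 5.65, 5.6, 5.3, 5.5 and 5.4, and the HFD+PE animals 5.7, 5.3, 5.6, 5.5 and 5.3. Of the chow livers, 3 lay above all others and 2 at or below the lowest of them, and the livers of both high fat groups kept to a narrow band inside the chow range. Means were 5.85 ± 0.56 in chow, 5.49 ± 0.14 in HFD and 5.48 ± 0.18 in HFD+PE (SD, n = 5 each). The log2 change was -0.36 (SE 0.20, adjusted p = 0.690 by limma) for HFD against chow and -0.37 (SE 0.20, adjusted p = 0.529 by limma) for HFD+PE against chow. Against HFD, the extract group differed by -0.01 (95% interval -0.43 to 0.41). Leaving out 1 animal gave Cav1 changes of -0.52 to -0.22 for HFD and -0.53 to -0.23 for HFD+PE against chow, in each case nearest 0 without chow 5, the animal at 6.4, and farthest from it without chow 1, the animal at 5.2.

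**Figure D1:**
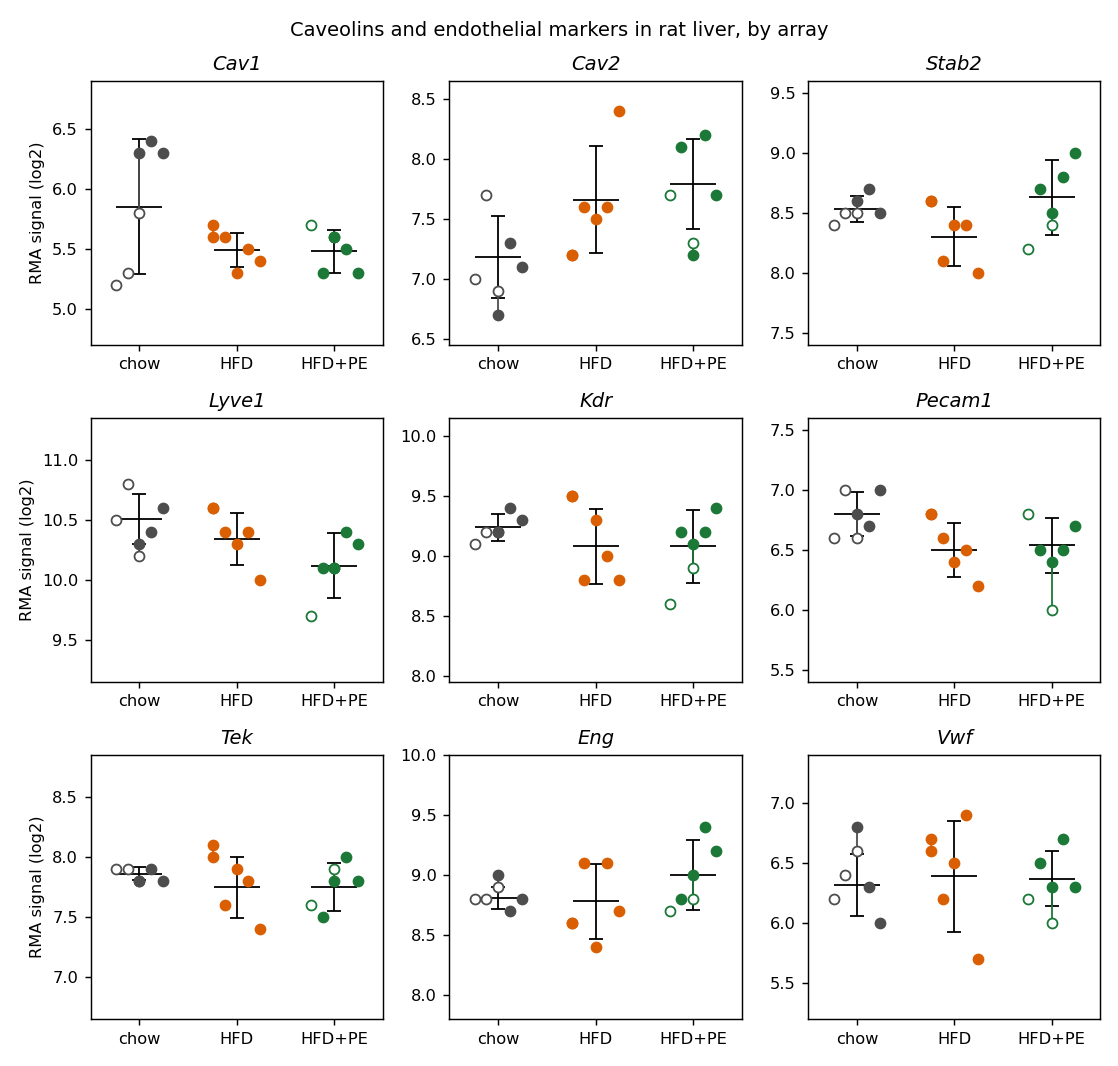
RMA signal (log2, vertical axis) of each of the 9 measured genes on every array, by diet group; filled points are arrays with the lower hybridization controls, open points those with the higher ones, thin lines join arrays counted as 1 animal, and bars give the mean ± SD of 5 animals. In the Cav1 panel the 3 filled chow points sit at 6.3 to 6.4, above all other arrays, and the 3 open chow points at 5.2 to 5.8.

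The division within chow followed the hybridization controls. On the 3 chow arrays of the lower set, Cav1 read 6.3, 6.3 and 6.4, and on the 3 of the higher set 5.2, 5.3 and 5.8. The 5.8 came from array 3 and one of the 6.3 from array 4, which were counted as the same animal. The corresponding HFD+PE pair, array 3 in the higher and array 4 in the lower set, read 5.6 on both arrays.

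Within the lower set, the high fat groups had lower Cav1 signals than chow. The set leaves out chow 1 and chow 2, the chow animals with the lowest Cav1, and array 3 of chow at 5.8. The 3 chow arrays lay at 6.3 to 6.4, the 6 HFD arrays at 5.3 to 5.7 and the 4 HFD+PE arrays at 5.3 to 5.6. HFD arrays 1 and 2 were averaged in the fit. Its adjusted p-values cover the genes but not the choice among the alternatives tried. The log2 change was -0.84 for HFD against chow (SE 0.10, adjusted p = 0.0174 by limma) and -0.91 for HFD+PE against chow (SE 0.11, adjusted p = 0.0124 by limma). Cav1 was the only gene past that threshold for HFD against chow (1 of 14217, 0.00703%), and for HFD+PE against chow it was among 3 (0.0211%), the others being A2m and Nnmt, which are named here because the count is small. For both high fat groups against chow the change was -0.88 (SE 0.09, adjusted p = 0.00392 by limma, 1 of 14217, 0.00703%). Between HFD+PE and HFD it was -0.07 (SE 0.09), where 0% of genes passed.

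Within the higher set, the order was the other way round. The chow arrays averaged 5.43 and the HFD+PE arrays 5.65, a log2 change of 0.22 (SE 0.20, adjusted p = 0.929 by limma; 3 chow arrays and 2 HFD+PE arrays). HFD could not be compared there, since it had no array in this set. With the set as a term in a fit of all 18 arrays, the Cav1 change was -0.52 for HFD against chow (adjusted p = 0.582 by limma) and -0.43 for HFD+PE against chow. On this brightest probe set, Cav1 was thus lower in HFD+PE than in chow in the lower set and not in the higher one. The difference between the array sets was not itself tested.

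**Figure D2:**
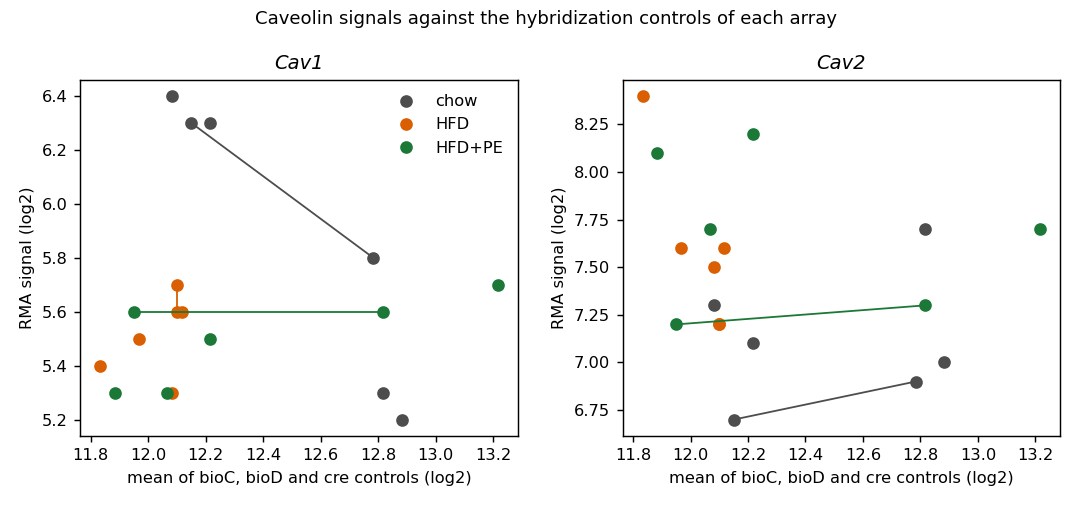
Cav1 (left) and Cav2 (right) signal on each array (log2, vertical axis) against the mean of the bioC, bioD and cre hybridization controls (log2, horizontal axis), coloured by diet group, with lines joining arrays counted as 1 animal. At control levels of 11.8 to 12.2 the 3 chow arrays stand at 6.3 to 6.4 for Cav1 and the high fat arrays at 5.3 to 5.7; at 12.8 to 13.2 the chow arrays are at 5.2 to 5.8.

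Caveolin-2 had the opposite direction. Cav2 read 7.0, 7.7, 6.8, 7.3 and 7.1 in the chow animals, 7.2, 7.6, 7.5, 7.6 and 8.4 in the HFD animals and 7.7, 8.1, 7.25, 8.2 and 7.7 in the HFD+PE animals. Most livers of the high fat groups lay above most chow livers, but the ranges overlapped, with chow reaching 7.7 and HFD starting at 7.2. Means were 7.18 ± 0.34 in chow, 7.66 ± 0.44 in HFD and 7.79 ± 0.38 in HFD+PE (SD, n = 5 each). The log2 change was 0.48 (SE 0.22, adjusted p = 0.630 by limma) for HFD against chow, 0.13 (95% interval -0.33 to 0.59) for HFD+PE against HFD and 0.61 (SE 0.22, adjusted p = 0.282 by limma) for HFD+PE against chow. The last is a 1.53-fold higher mean signal that did not pass after adjustment. Without HFD 6, the animal at 8.4, the Cav2 change for HFD against chow was 0.295 (adjusted p = 0.862 by limma), and leaving out any other animal gave 0.385 to 0.61.

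By array set, Cav2 could be compared with chow for both high fat groups in the lower set and for HFD+PE alone in the higher one. In the lower set its log2 change was 0.63 for HFD against chow and 0.77 for HFD+PE against chow (adjusted p = 0.857 and 0.480 by limma). In the higher set it was 0.30 for HFD+PE against chow (adjusted p = 0.929 by limma). Across the 15 animals, after the group means were removed, Cav1 and Cav2 had a Pearson r of -0.27 (permutation p = 0.338, adjusted p = 0.864 over 36 pairs of members; Spearman rho -0.19, permutation p = 0.501, adjusted p = 0.949). Without the 2 animals whose Cav1, with the group means removed, lay farthest from its median, r was -0.25. Within the 10 animals measured on lower set arrays alone r was -0.20.

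The other probe sets of the caveolins were dimmer, and several lay in the lowest part of the scale. The second Cav1 probe set read 3.98 ± 0.36 in chow, 3.54 ± 0.13 in HFD and 3.65 ± 0.10 in HFD+PE (SD, n = 5 each). Its change for both high fat groups against chow was -0.39 (SE 0.12, adjusted p = 0.270 by limma over 31042 probe sets), which has the sign of the brightest one. For this probe set the chow arrays lay at 3.7 to 4.5 in the lower set and at 3.7 to 4.2 in the higher set, so the array sets overlapped. Its HFD+PE arrays averaged 3.65 in the lower set, where chow averaged 4.0. In the higher set they averaged 3.7 and chow 3.87. On this dim probe set HFD+PE was thus below chow in both sets, unlike on the brightest one. The third Cav1 probe set stayed between 2.9 and 3.2 on all 18 arrays, and its change was 0.04.

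For Cav2, the probe sets with mean levels of 7.14 and 5.12 over the 18 arrays had changes of 0.46 (SE 0.17) and 0.37 (SE 0.18) for both high fat groups against chow, with adjusted p of 0.387 and 0.551 by limma. The brightest probe set gave 0.55 (SE 0.19, adjusted p = 0.254 by limma over genes). The fourth, with a mean level of 3.92, gave 0.00 (SE 0.08). The 3 brighter Cav2 probe sets thus shared a direction, while the dimmest of either caveolin showed no difference.

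**Figure D3:**
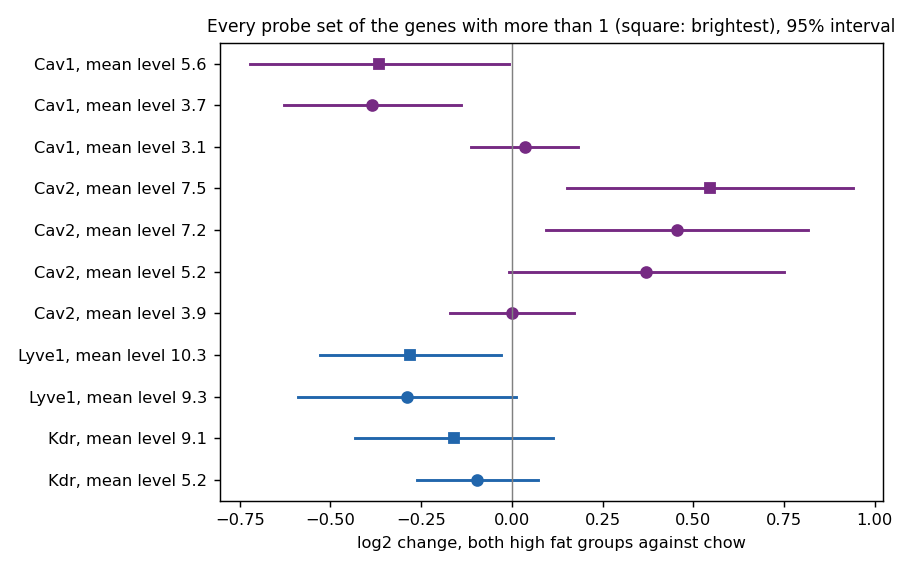
Log2 change of both high fat groups against chow (horizontal axis, points with 95% intervals) for every probe set of the genes that have more than 1, each named with its mean log2 level over the 15 animals; squares mark the brightest probe set of a gene. The Cav1 probe sets at 5.6 and 3.7 lie left of 0 at -0.37 and -0.39, and the Cav2 probe sets at 7.5, 7.2 and 5.2 lie right of 0 at 0.55, 0.46 and 0.37.

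The sinusoidal markers had their group means in different orders, Stab2 highest and Lyve1 lowest in the extract group. Stab2, the scavenger receptor that clears hyaluronan, read 8.4, 8.5, 8.55, 8.7 and 8.5 in chow, 8.6, 8.1, 8.4, 8.4 and 8.0 in HFD and 8.2, 8.7, 8.45, 8.8 and 9.0 in HFD+PE. Chow animals were close together, HFD animals were level with them or lower, and HFD+PE animals spread to both sides. Means were 8.53 ± 0.11, 8.30 ± 0.24 and 8.63 ± 0.31 (SD, n = 5 each). Against HFD, the extract group was 0.33 higher (SE 0.14, adjusted p = 0.993 by limma), where 2.7% of all genes reached an unadjusted p under 0.05. Against chow the change was -0.23 (SE 0.14) for HFD and 0.10 (SE 0.14) for HFD+PE.

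The Stab2 difference between the extract and HFD groups was 0.45 among the arrays of the lower set (SE 0.13, adjusted p = 0.993 by limma). It is not measured in the higher set. Stab1, the related stabilin-1, went the same way, with a change of 0.27 for HFD+PE against HFD (SE 0.11, adjusted p = 0.993 by limma). Its means were 8.13 ± 0.19 in chow, 7.90 ± 0.24 in HFD and 8.17 ± 0.10 in HFD+PE (SD, n = 5 each). Stab1 is 1 of 13 further sinusoidal endothelial genes measured, which are described below. For HFD+PE against HFD, 7 of these 13 were above 0 and 6 below, with a median of 0.02, so the list as a whole did not share this direction. Neither stabilin passed.

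Lyve1 had its highest mean in chow and its lowest in HFD+PE. Its signal was 10.5, 10.8, 10.25, 10.4 and 10.6 in chow, 10.6, 10.4, 10.3, 10.4 and 10 in HFD and 9.7, 10.1, 10.1, 10.4 and 10.3 in HFD+PE. The extract group lay mostly below chow, with an overlap between 10.25 and 10.4, and HFD lay between them. Means were 10.51 ± 0.21, 10.34 ± 0.22 and 10.12 ± 0.27 (SD, n = 5 each), and the change for HFD+PE against chow was -0.39 (SE 0.14, adjusted p = 0.276 by limma). It was -0.21 in the lower array set and -0.60 in the higher one, with adjusted p of 0.746 and 0.915 by limma. The second Lyve1 probe set gave -0.41 (SE 0.16, adjusted p = 0.463 by limma) for the same comparison, close to the first.

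Among the general endothelial genes, Kdr, the main receptor for vascular endothelial growth factor, read 9.1, 9.2, 9.2, 9.4 and 9.3 in chow, 9.5, 8.8, 9.3, 9.0 and 8.8 in HFD and 8.6, 9.2, 9.0, 9.2 and 9.4 in HFD+PE. Both high fat groups spread around the chow values. Its means were 9.24 ± 0.11, 9.08 ± 0.31 and 9.08 ± 0.30 (SD, n = 5 each), and its change was -0.16 (SE 0.15) for HFD against chow, with a 95% interval of -0.48 to 0.16. In the higher array set the change for HFD+PE against chow was -0.42 (SE 0.13, adjusted p = 0.915 by limma), and in the lower set -0.08. The second Kdr probe set, with a mean level of 5.19, did not show this contrast. It averaged 5.4 in chow and 5.35 in HFD+PE in the higher set, and 5.17 and 5.075 in the lower.

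Pecam1, the adhesion molecule CD31 of endothelial junctions, read 6.6, 7.0, 6.7, 6.7 and 7.0 in chow, 6.8, 6.6, 6.4, 6.5 and 6.2 in HFD and 6.8, 6.5, 6.2, 6.5 and 6.7 in HFD+PE. Every chow animal was above the median of either other group, though the ranges overlapped. Means were 6.80 ± 0.19, 6.50 ± 0.22 and 6.54 ± 0.23 (SD, n = 5 each). The change was -0.30 (SE 0.13, adjusted p = 0.615 by limma) for HFD against chow and -0.26 (SE 0.13, adjusted p = 0.469 by limma) for HFD+PE against chow. Unlike the brightest Cav1 probe set, Pecam1 had the same sign in both array sets. For HFD+PE against chow it was at -0.31 in the lower and -0.33 in the higher set.

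Tek, the angiopoietin receptor Tie2, was nearly constant in chow, at 7.8 to 7.9 in all 5 animals, and ran from 7.4 to 8.05 in HFD and from 7.5 to 8.0 in HFD+PE. Its change was -0.11 (SE 0.12) for both high fat groups, taken singly, against chow. Eng, an accessory receptor for TGF-beta and BMP ligands, ran from 8.7 to 8.95 in chow, 8.4 to 9.1 in HFD and 8.7 to 9.4 in HFD+PE, with changes of -0.03 (SE 0.15) for HFD against chow and 0.22 (SE 0.15) for HFD+PE against HFD. Vwf, the clotting factor stored by endothelial cells outside most sinusoids, ran from 6.0 to 6.7 in chow, 5.7 to 6.9 in HFD and 6.15 to 6.7 in HFD+PE. Its changes were 0.07 (SE 0.19) for HFD against chow and -0.02 (SE 0.19) for HFD+PE against HFD.

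**Figure D4:**
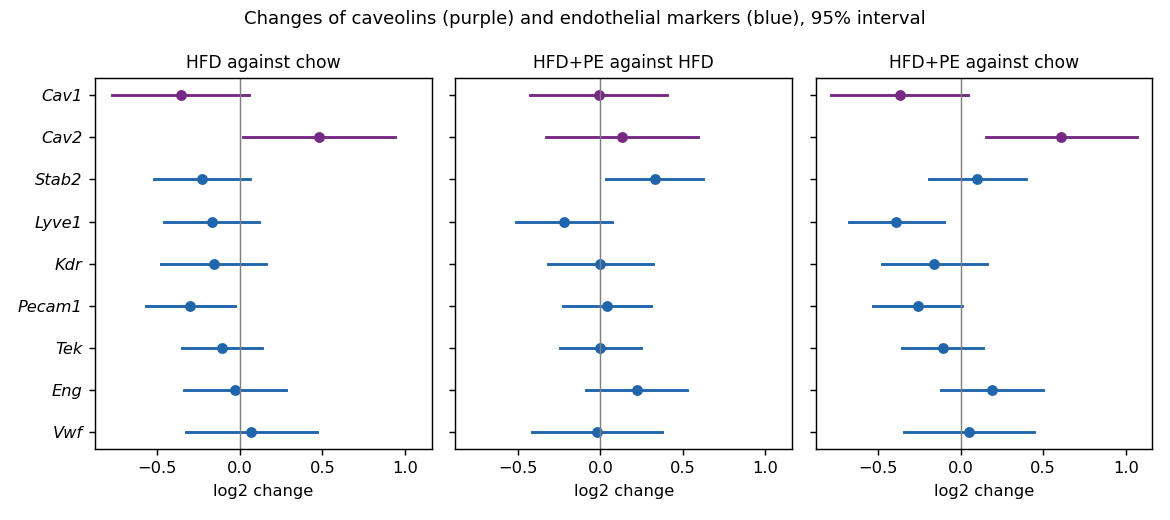
Log2 change (horizontal axis, points with 95% intervals from limma) of caveolins (purple) and endothelial markers (blue) for HFD against chow (left), HFD+PE against HFD (middle) and HFD+PE against chow (right), 5 animals per group. For HFD+PE against chow, Cav2 lies at 0.61, Lyve1 at -0.39, Cav1 at -0.37 and the other genes between -0.26 and 0.19, and none passed after adjustment.

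Set against the 7 endothelial members, the caveolins lay on either side. The endothelial members had a median change of -0.16 for HFD against chow (6 of 7 below 0, against 46.6% of all genes), 0.00 for HFD+PE against HFD (2 of 7, 46.6%) and -0.11 for HFD+PE against chow (4 of 7, 45.6%). For both high fat groups against chow it was -0.11 (5 of 7, 46.3%). The median over all genes was 0.00, 0.00 and 0.01. Cav1, at -0.36 and -0.37 against chow, was below the endothelial median in both comparisons and within the range of single endothelial members for HFD+PE against chow, where Lyve1 was at -0.39. Cav2, at 0.48 and 0.61, was above every endothelial member, of which the highest were Vwf at 0.07 and Eng at 0.19. These distances were not tested, because the members were chosen with results in view.

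Within groups, some endothelial members varied together from animal to animal. Kdr and Stab2 had a Pearson r of 0.94 over the 15 animals after the group means were removed (permutation p = 2e-05, adjusted p = 0.00072 over 36 pairs; Spearman rho 0.91, permutation p = 0.00013, adjusted p = 0.00468). Without the 2 animals whose Stab2, with the group means removed, lay farthest from its median, r was 0.90. Within the 10 animals of the lower array set alone r was also 0.90. It was the only pair of the 36 to pass. Cav1 had r of -0.26 to 0.15 with the 7 endothelial members and Cav2 -0.44 to 0.12, and none of these passed. Within the 10 animals of the lower array set alone, Cav1 had 0.05 (Kdr) to 0.60 (Lyve1, -0.26 over all 15 animals). Cav2 there had -0.87 (Pecam1) to -0.56 (Vwf) with all but Eng, which was at 0.05. These lower set values were not tested.

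Other genes of the caveola coat gave 6 measured of 8 listed. For HFD+PE against chow 1 was above and 1 below at an unadjusted p under 0.05, where 11.1% of all genes reached it and 5.14% were lower. The median was -0.11, with 4 of 6 below 0 (45.6% of all genes). Cavin3, which binds caveolae and protein kinase C, read 8.97 ± 0.64 in chow, 8.70 ± 0.41 in HFD and 7.91 ± 0.61 in HFD+PE (SD, n = 5 each), a change of -1.06 for HFD+PE against chow (SE 0.31, adjusted p = 0.208 by limma). Pacsin3, a membrane-bending coat protein, had 0.27 (SE 0.12, adjusted p = 0.407 by limma) in that comparison. Cavin2 had -0.35 and the muscle caveolin Cav3 -0.14. Cavin1, needed for caveolae with caveolin-1, and Cavin4 had no probe set named for them alone and were not used here.

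Of 15 further sinusoidal endothelial genes 13 were measured, with median changes of -0.03 for HFD against chow and 0.02 for HFD+PE against chow, and 0 of 13 passed. At an unadjusted p under 0.05, 1 was lower for HFD (3.57% of all genes) and 2 were lower for HFD+PE (5.14% of all genes). Dnase1l3, a secreted nuclease of sinusoidal cells, read 10.31 ± 0.14 in chow, 9.98 ± 0.18 in HFD and 9.92 ± 0.28 in HFD+PE (SD, n = 5 each). Gpr182, a chemokine-scavenging receptor, had changes of -0.16 and -0.27 against chow, and the adhesion molecule Icam1 0.22 and 0.42. The list therefore had members on both sides of 0.

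Of 38 further general endothelial genes 34 were measured, with medians of -0.03 and -0.02 for HFD and HFD+PE against chow, and 0 of 34 passed. For HFD against chow 3 reached an unadjusted p under 0.05, all lower, where 7.65% of all genes did and 3.57% were lower. In HFD+PE against chow 4 did, 3 of them lower, where 11.1% of all genes did and 5.14% were lower. Cd93, a C-type lectin of endothelium and monocytes, had the smallest p, with means of 7.48 ± 0.29, 7.02 ± 0.18 and 6.98 ± 0.18 (SD, n = 5 each) and changes of -0.46 (SE 0.13, adjusted p = 0.548 by limma) and -0.50 (SE 0.13, adjusted p = 0.158 by limma). Icam2 had -0.32 and -0.37, Egfl7 0.04 and 0.26, and Ramp2 -0.02 and -0.24. The medians of both endothelial lists lay close to that of all genes.

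Of 15 ligands, receptors and co-receptors of the VEGF, angiopoietin, TGF-beta and BMP families 12 were measured. Not all of them bind Kdr, Tek or Eng. They had a median of 0.01 in either comparison against chow, and 0 of 12 passed. Angpt2, which antagonises Tek signalling in many settings, had -0.47 for HFD against chow (SE 0.13, adjusted p = 0.50 by limma) and -0.22 for HFD+PE. Its means of 4.53 in chow, 4.06 in HFD and 4.31 in HFD+PE lay below the array medians of 5.4 to 5.5. Vegfb, a growth factor of the VEGF family, had -0.32 and -0.52, and Tgfbr1, the type I TGF-beta receptor, 0.39 and 0.39. Nrp2, a co-receptor for VEGF and semaphorins, had 0.06 and 0.51.

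Markers of other liver cells are given here beside the members, and none of them passed after adjustment. All 11 measured Kupffer cell and macrophage markers, of 14 listed, had changes below 0 for HFD against chow (46.6% of all genes), with a median of -0.53, and 10 of 11 for HFD+PE against chow (45.6% of all genes), with a median of -0.82. Their mean level per animal ran from 8.25 to 9.15 in chow, 7.67 to 8.48 in HFD and 7.33 to 8.25 in HFD+PE. Erythrocyte genes, 4 measured of 7, ran from 6.38 to 7.45, 6.30 to 7.26 and 6.56 to 6.95, so the groups overlapped. Mesothelial markers, 3 measured of 4, ran from 5.27 to 6.00, 5.17 to 5.27 and 5.17 to 5.4. All 3 had lower means in HFD and in HFD+PE than in chow (46.6% and 45.6% of all genes). The part of these cells in the caveolin and endothelial values was not tested.

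Adipocytes, smooth muscle and fibroblasts also carry caveolin-1. The 7 measured adipocyte genes, of 8 listed, had medians of 0.08 for HFD and -0.02 for HFD+PE against chow, with 2 and 4 of 7 below 0, and their mean level per animal ran from 5.6 to 5.69 in chow, 5.44 to 5.81 in HFD and 5.47 to 5.61 in HFD+PE. The complement factor gene Cfd had changes of -0.42 and -0.51 (adjusted p = 0.625 and 0.294 by limma), and the lipid droplet gene Cidec, at 9.96 ± 0.21 in chow, 9.98 ± 0.30 in HFD and 9.84 ± 0.24 in HFD+PE (SD, n = 5 each), 0.02 and -0.12. Adiponectin (Adipoq), a defining adipocyte gene, was at 3.83 ± 0.12 in chow, 3.93 ± 0.12 in HFD and 3.81 ± 0.17 in HFD+PE (SD, n = 5 each), in the lowest part of the scale in every group. The 7 smooth muscle genes had medians of 0.14 and 0.11 for HFD and HFD+PE against chow, and the 13 stellate cell and fibroblast genes -0.16 and -0.29. For HFD+PE against chow, 10 of these 13 were below 0 (45.6% of all genes), and 4 reached an unadjusted p under 0.05, all lower (5.14% of all genes). None passed after adjustment.

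**Figure D5:**
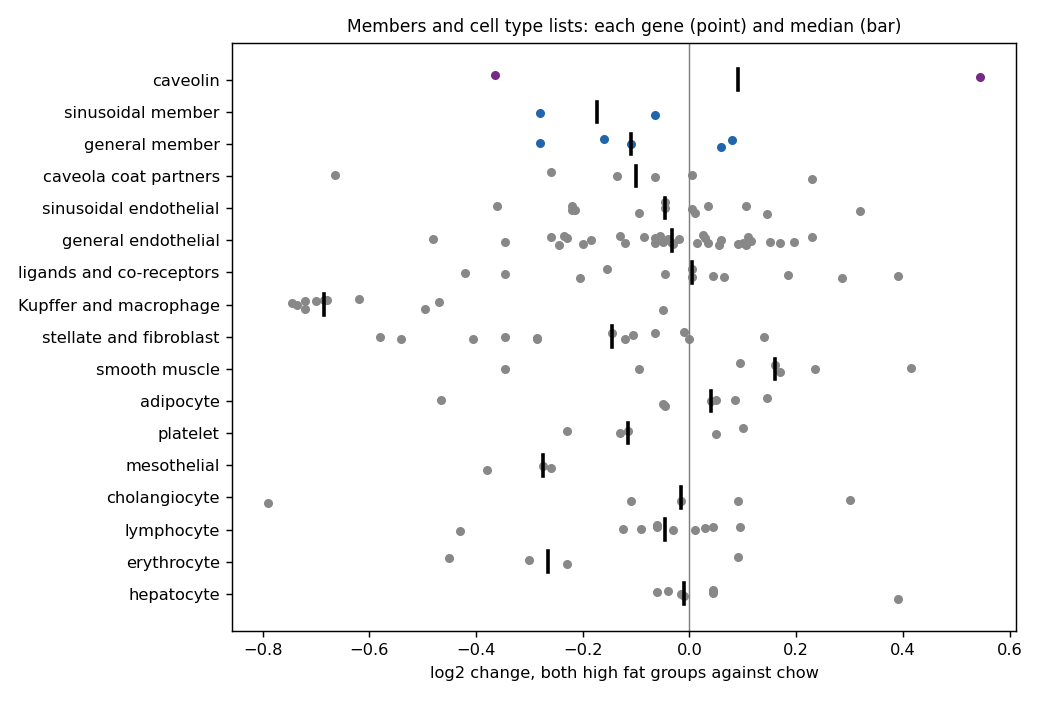
Log2 change of both high fat groups against chow (horizontal axis) for each gene of the members and of the lists, with a bar at each list's median. The Kupffer cell and macrophage genes cluster near their median of -0.69, the endothelial lists near 0 with medians of -0.05 and -0.03, and the caveolins at -0.37 and 0.55.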

How the data were processed

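Liver RNA was hybridized to Affymetrix rat arrays. The deposited values are log2 signals that the authors made with RMA in Affymetrix Expression Console, per the submitters' processing notes, and they were given to 1 decimal. RMA normalizes between arrays, so differences are relative to the other genes, and no counts or depth exist: precision rests on the number of arrays. Of 31099 probe sets, 20826 named 1 gene symbol and 436 several. The brightest probe set by mean over 18 arrays stood for each of 14217 genes.

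Arrays taken as repeats of 1 animal were averaged. Group means over 15 animals were compared in limma 3.58.1 (R 4.3.3, two-sided moderated test, eBayes, Benjamini-Hochberg over all genes), with all groups sharing 1 estimate of spread. Nothing in the labels shows whether animals shared cages, so p-values measure the spread between these samples. Correlations between members used 100000 permutations of animals within groups. The fit was tested on simulated data of HFD against chow with 200 changed genes and independent normal noise. It called 94 of 100 genes changed by 1 log2 unit, 98 of 100 changed by 2, and 5 of 14017 unchanged genes. Changes below 1 log2 unit were not simulated. The largest member change over the 15 animals, 0.61 for Cav2 in HFD+PE against chow, was below that. These counts therefore do not give the power for the members.

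The members and gene lists were chosen with earlier results of these data known. Genes named were the members, up to 4 of each list by the smallest p of the F test over groups, and the 5 genes most correlated with Cav1 and with Stab2. Lists of platelet, cholangiocyte and lymphocyte genes are in the closing section. Alternatives tried were separate arrays, replicate numbers as a block, the second number of the sample descriptions, all probe sets, a filter on dim genes, other normalization, hybridization controls, the variance prior and leaving out each animal.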

Additional observations from a re-analysis of the deposited data

How the results depend on the processing

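No member passed in any comparison under any alternative except that restricted to the lower hybridization control set, where Cav1 alone passed in all 3 comparisons with chow and in the test of any difference (1 member each, against 0). There the Cav1 change minus the endothelial median was -0.75 for HFD, -0.85 for HFD+PE and -0.80 for both high fat groups against chow. The fits with the set as a term, on higher set arrays alone and with the GAPDH covariate, and the separate fit of 31042 probe sets in place of genes, were chosen after seeing the data. On the higher set alone, for HFD+PE against chow, the endothelial median was -0.30, Cav1 minus it 0.52, Cav1 0.22, Stab2 -0.17, Eng -0.083 and Vwf -0.30.

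Genes passing over the whole array moved from 0 as follows. For HFD+PE against chow they were 145 with 18 separate arrays, 119 with the replicate block, 144 with the second description number, 3 in the lower set and 18 with the set as a term. For both high fat groups they were 49, 45, 62, 1 and 10, and 4 with repeated quantile normalization and 4 with a trended robust prior. For any difference they were 19, 29, 20, 3 and 1. For HFD against chow there was 1 in the lower set and 1 with the set term. Leaving out 1 animal gave 0 to 1, 0 to 2, 0 to 26, 0 to 23 and 0 to 12 for HFD against chow, HFD+PE against HFD, HFD+PE against chow, both groups and any difference. Replicate numbers did not pair the samples (18 same-numbered pairs, r -0.31 to 0.19), and the replicate block changed no member's call.

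Other signs turned for small values. For HFD+PE against HFD, Cav1 was 0.057 as the mean of its probe sets, 0.078 with the control mean and 0.084 with the set term. Pecam1 was -0.067 with separate arrays, with the replicate block and with the second number, and -0.011 with the control mean. Vwf was 0.06 in the lower set and 0.027 with the set term. Vwf was also -0.032 and -0.018 with the set term for HFD and for both groups against chow, and -0.05 with separate arrays, the block and the second number for HFD+PE against chow. Leaving out 1 animal gave Eng -0.11 to 0.065 and Vwf -0.058 to 0.24 for HFD against chow. For HFD+PE against HFD it gave Cav1 -0.065 to 0.035, Pecam1 -0.035 to 0.13 and Vwf -0.19 to 0.11. Vwf ran from -0.033 to 0.15 for HFD+PE against chow and from -0.02 to 0.16 for both groups. The causes were not tested. With 5 animals per group, the 95% interval for HFD+PE against HFD still allowed Cav1 changes of -0.43 to 0.41 and Cav2 changes of -0.33 to 0.59.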

Other observations

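Genes whose signal over the 15 animals was most like that of Cav1, among 10026 genes with a mean level of at least 5, were Tmem128 (Pearson r 0.87), the alpha-globin gene Hba-a3 (0.80), the endoplasmic reticulum protein gene Txndc12 (0.79), the proton-coupled folate transporter Slc46a1 (0.76) and Trip10 (0.75). For Stab2 they were Negr1 (0.83), Kctd20 (0.83), the focal adhesion gene Tns3 (0.83), the lysophosphatidic acid receptor Lpar6 (0.81) and Tcp11l2 (0.80). These were picked as the highest of all genes, so the values are a description. They keep the group means, unlike the correlations between members. With the group means removed, r was 0.84, 0.76, 0.78, 0.68 and 0.67 for the Cav1 genes, in that order. For the Stab2 genes it was 0.79, 0.80, 0.77, 0.77 and 0.74. Chow Cav1 signals followed the array sets, and the part of those sets in these values was not tested.

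Lists of platelet, bile duct and lymphoid cells were also measured. For both high fat groups against chow the 5 measured platelet genes had a median of -0.12, the 5 cholangiocyte genes -0.02 and the 10 lymphocyte genes -0.05, and none of them passed after adjustment. Among cholangiocyte genes, the keratin gene Krt19 had changes of -0.89 for HFD and -0.69 for HFD+PE against chow (adjusted p = 0.426 and 0.247 by limma), and the epithelial adhesion gene Epcam 0.33 and 0.27 (adjusted p = 0.572 and 0.419 by limma). The Krt19 means were 5.44 ± 0.36 in chow, 4.55 ± 0.58 in HFD and 4.75 ± 0.18 in HFD+PE (SD, n = 5 each). Among platelet genes, Itga2b, the platelet integrin subunit, read 7.21 ± 0.11 in chow, 6.99 ± 0.23 in HFD and 7.20 ± 0.16 in HFD+PE (SD, n = 5 each). Among smooth muscle genes, smoothelin (Smtn) had 0.44 for HFD against chow and transgelin (Tagln) -0.36, with adjusted p of 0.569 and 0.615 by limma.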
